A study of Solanum lycopersicum with 4 samples.

Results

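Among 13840 genes compared in tomato leaves (Solanum lycopersicum, cultivar Moneymaker), 90 were at least 4-fold higher after 3 h at 10 °C than at 0 h and lay within 2-fold of their 0 h level at both 24 and 48 h. The genes were selected on these values, so the high level at 3 h and the near-baseline levels later are a definition and are given as a description only. The rule asked for genes listed in all 4 deposited files with a mean of at least 5 CPM (reads per 1000000, after scaling of the libraries), and took ratios as log2 of CPM plus a pseudocount worth 5 reads. The background in the same comparison was 197 genes at least 4-fold higher at 3 h, or 1.42% of the genes compared, and the 90 genes were 0.65% of them.

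Seedlings were germinated for 5 days and grown for another 16 days at 25 °C with light of 100 µmol m-2 s-1, and 3-week-old plants were then held at 10 °C with 40 µmol m-2 s-1, both in days of 12 h light, per the labels' protocols. The leaves of the first true pair were harvested at 0, 3, 24 and 48 h, and each time is 1 library (0h_10C, 3h_10C, 24h_10C and 48h_10C) of 35.7 M to 38.5 M unique reads (M stands for 1000000). With 1 library per time no test and no standard error can be given for the differences below, and the intervals cover counting error only. Provided that 0 h means before the transfer, which the labels do not state, cold, the weaker light and, by the sampling times, another hour of the day all set the 3 h library apart from that at 0 h, and these cannot be told apart here. Counted from the same start, the 24 and 48 h harvests fall at the 0 h hour of the day, and only that at 3 h falls at another. A rise at 3 h alone therefore also cannot be told apart from a daily course. In RNA from whole leaves, a change in the share of a cell type and a change in RNA per cell also cannot be told apart. The files name no leaf marker gene, so the tissue label was not checked against one.

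Plants moved into the cold answer within minutes to hours with calcium and hormone signals and with a wave of new transcripts, part of which fades while the plant settles at the lower temperature. Transcripts that rise and vanish within a day are in general those with a short burst of synthesis and a fast decay, and in plants they include many enzymes that switch hormone levels on or off. Clock-controlled transcripts also rise and fall within a day. The files pair nearly all identifiers with no gene name, so for most of the 90 genes only the identifier's chromosome, the gene length and the levels can be given. The exception is Solyc08g005610.2.1.

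Solyc08g005610.2.1, on chromosome 8 and 1672 bases long, carries annotation text in the 3 h file that names it as an ABA 8'-hydroxylase of the CYP707A1 type, by its match to the potato protein. ABA 8'-hydroxylases are cytochrome P450 enzymes that start the main route of breakdown of abscisic acid (ABA), the hormone that accumulates in drought and cold, closes stomata and slows growth. Its level was 3.65 CPM at 0 h (132 reads), 107 CPM at 3 h (3460 reads), 3.21 CPM at 24 h (122 reads) and 4.96 CPM at 48 h (207 reads). The 3 h library alone was high, and its level was 21.5 times that of the highest of the other times. Against 0 h the level at 3 h was 29.2-fold higher, with an exact Clopper-Pearson interval (95%) of 24.6 to 35.1, and the log2 ratio with the pseudocount was 4.82, the fifth largest of the 90 genes. At 24 h the transcript was at 0.879 times its starting level, and the interval, 0.681 to 1.13, held 1. At 48 h it was at 1.36 times that level, and the interval, 1.09 to 1.70, lay above 1. By RPKM (reads per kilobase of gene and per 1000000 reads) the gene ranked 16146 among the genes listed at 0 h, rank 1987 at 3 h, rank 16346 at 24 h and rank 14746 at 48 h.

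Of the ABA pathway, 2 more genes are named by such text, and neither followed this course. Solyc08g075320.2.1, named as another ABA 8'-hydroxylase, had no read at 0 h, 16 reads at 3 h, 9 reads at 24 h and 107 reads at 48 h, too few to be compared, and was highest in the 48 h library. Solyc02g090890.2.1, named as zeaxanthin epoxidase, which makes the xanthophylls from which ABA is built, had 779 CPM at 0 h, 750 CPM at 3 h, 263 CPM at 24 h and 292 CPM at 48 h. Its log2 ratio to 0 h was -0.05 at 3 h, then -1.56 at 24 h and finally -1.42 at 48 h, so it was level at 3 h, when the hydroxylase transcript was high, and lower on both later days. Annotation text stands beside 73 genes in all, of which 47 were compared, and Solyc08g005610.2.1 was the only one of these at least 4-fold higher at 3 h. Its mean over the 0, 24 and 48 h libraries was 3.94 CPM, below the minimum of 5 CPM. It was therefore compared only because of its 3 h level, and its place in these counts is partly built in. Of the 21 whose text has the word kinase, 0 passed that limit, beside 1.42% of all genes compared, and 1 was at least 2-fold higher at 3 h, beside 4.76%. The median log2 ratio of the 21 at 3 h was 0.01, beside 0.0024 over all genes compared. The text of 12 compared genes names a cytochrome P450, a list drawn up after the values were seen. Of these, Solyc08g005610.2.1 alone was at least 4-fold higher at 3 h, beside 1.42% of all genes compared. It and 1 other were at least 2-fold higher, beside 4.76%, and 1 was at least 2-fold lower. The median log2 ratio of the 12 at 3 h was -0.03. With so few genes these counts describe the list only.

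The 90 genes spanned a wide range of ratios at 3 h. Their log2 ratios ran from 2.01 to 6.22 with a median of 2.51 and quartiles of 2.15 and 3.19. The ratio was at least 16-fold in 8 genes, 8- to 16-fold in 21 and 4- to 8-fold in 61. All 8 genes at or above 16-fold had a mean below 5 CPM over the 0, 24 and 48 h libraries. Each of them, Solyc01g095140.2.1 and Solyc08g005610.2.1 included, thus passed the filter on low levels only through the 3 h library. Over all genes compared the median at 3 h was 0.0024, with quartiles of -0.18 and 0.18.

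**Figure D1:**
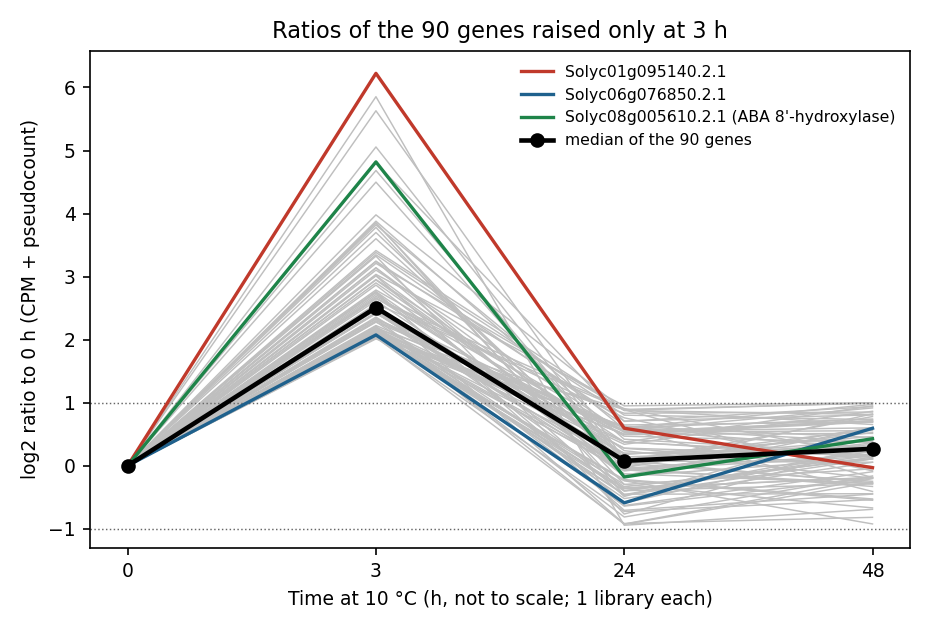
Log2 ratio to 0 h (CPM plus pseudocount) of each of the 90 genes at 0, 3, 24 and 48 h at 10 °C, 1 library per time, as grey lines. The black line is their median (2.51 for 3 h, 0.08 for 24 h, 0.27 for 48 h), coloured lines are the 3 genes given by identifier, and dotted lines mark the 2-fold window that the rule set for 24 and 48 h.

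The largest log2 ratio at 3 h, 6.22, belonged to Solyc01g095140.2.1 on chromosome 1, a gene of 721 bases. It had 2.79 CPM at 0 h (101 reads), 219 CPM at 3 h (7092 reads), 4.29 CPM at 24 h (163 reads) and 2.73 CPM at 48 h (114 reads). Without the pseudocount it was 78.3-fold higher at 3 h than at 0 h (64.4 to 96.3). At 24 h it was still 1.53-fold above 0 h (1.19 to 1.99), and at 48 h the ratio was 0.978, and its interval, 0.741 to 1.29, held 1. Its rank by RPKM was 407 at 3 h, against 13903 at 0 h.

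The second largest ratio was that of a gene of 171 bases on chromosome 12, the shortest of the 90, and it rests on few reads. Its read counts were 10 (0 h), 767 (3 h), 3 (24 h) and 5 (48 h), and its plain fold of 85.6 at 3 h (46.3 to 179) was above that of the gene ranked before it. Its ratio at 24 h was 0.285 without the pseudocount (0.0505 to 1.11) and its ratio at 48 h 0.433 (0.116 to 1.39), so only the pseudocount placed it within 2-fold of 0 h. The third, on chromosome 6, had 0.581 CPM at 0 h, 35.3 CPM at 3 h, 0.632 CPM at 24 h and 0.935 CPM at 48 h. The fourth, also on chromosome 6 and 1598 bases long, had 1.22 CPM at 0 h, 44.9 CPM at 3 h, 1.29 CPM at 24 h and 1.27 CPM at 48 h. In both of these the intervals at 24 and 48 h included no difference from 0 h.

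Below Solyc08g005610.2.1 in the order, levels on the later days lay on both sides of the start. The gene ranked 6, on chromosome 3, had 1.94 CPM at 0 h, 57.7 CPM at 3 h, 3.24 CPM at 24 h and 3.83 CPM at 48 h, and its intervals at 24 h (1.24 to 2.27) and 48 h (1.49 to 2.66) both lay above 1. The gene ranked 9, on chromosome 2 and 3473 bases long, was the most abundant of the 12 with the largest ratios. It had 36.2 CPM at 0 h, 572 CPM at 3 h, 66.6 CPM at 24 h and 72.3 CPM at 48 h. That put it 15.8-fold above 0 h at 3 h (15.0 to 16.8) and 1.84-fold above it at 24 h (1.72 to 1.97). At 48 h the fold was 1.999, at the edge of the window, and its interval (1.87 to 2.13) reached past 2-fold. The gene ranked 12, on chromosome 4 and 513 bases long, lay lower at 24 h. It had 10.8 CPM at 0 h, 157 CPM at 3 h, 8.74 CPM at 24 h and 10.4 CPM at 48 h, with an interval at 24 h (0.699 to 0.942) that lay below 1.

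**Figure D2:**
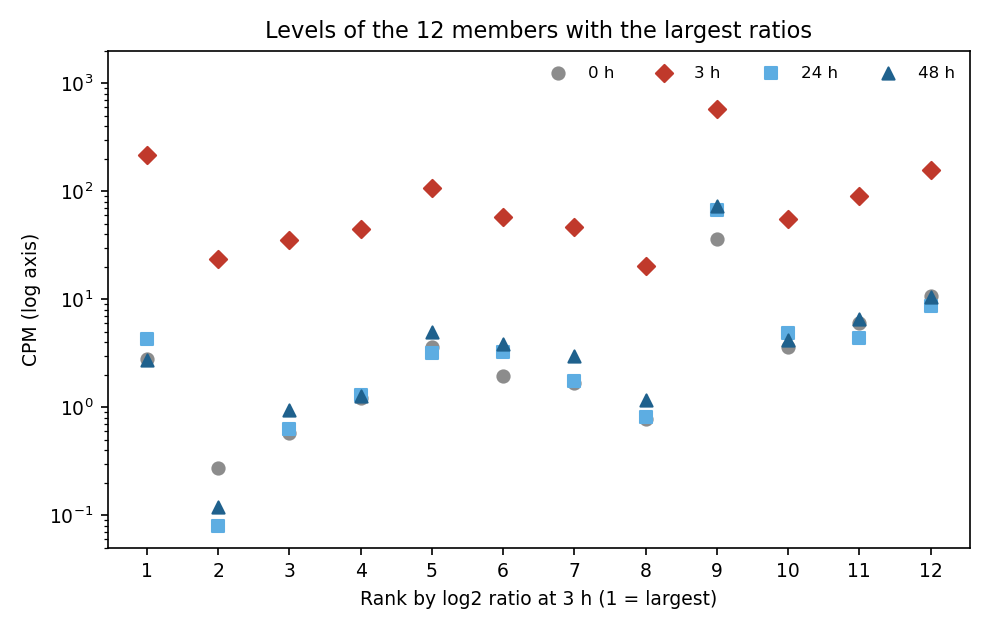
CPM on a log axis of the 12 members with the largest log2 ratio at 3 h, in order of that ratio, with 1 symbol for each library (0, 3, 24 and 48 h). In each of the 12 the 3 h symbol stands far above the other 3, and Solyc01g095140.2.1 is at rank 1 and Solyc08g005610.2.1 at rank 5.

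The highest level of the 90 genes at 3 h was that of Solyc06g076850.2.1, on chromosome 6 and 2260 bases long, whose ratio was among the smallest. It had 167 CPM at 0 h (6022 reads), 702 CPM at 3 h (22757 reads), 111 CPM at 24 h (4209 reads) and 252 CPM at 48 h (10496 reads). The 3 h level was 4.22-fold above 0 h (4.10 to 4.34), a log2 ratio of 2.07. At 24 h it was at 0.665 times the 0 h level (0.639 to 0.691) and at 48 h at 1.51 times that level (1.46 to 1.56), so the later days lay on opposite sides of the start by more than counting error. Its 3 h level was 2.79 times its next highest level, that at 48 h.

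At the other times the 90 genes were mostly of modest abundance. Their median level was 10.9 CPM at 0 h, 71.3 CPM at 3 h, 11.2 CPM at 24 h and 12.7 CPM at 48 h, while the median over all genes compared stayed between 21.2 and 21.9 CPM. Together their share of reads was 0.154% in the 0 h library, 0.9497% in the 3 h library, 0.188% in the 24 h library and 0.222% in the 48 h library, and the 5 with the most reads at 3 h held 25.4% of the group's reads in that library. Per length, 0 of the 90 were among the 1000 genes of highest RPKM at 0 h, of 24225 listed. At 3 h 17 were, of 24049 listed, and at both later times the number was again 0. This course follows from the rule, which chose a rise at 3 h alone, and is a description only. The highest RPKM of the group at 3 h, 328, belonged to a gene of 902 bases on chromosome 1, which had 26.3 RPKM at 0 h, 29.0 at 24 h and 24.9 at 48 h. Below 5 CPM at 0 h were 31 of the 90 (34.4%), beside 4.77% of all genes compared. Of the other 107 genes at least 4-fold higher at 3 h it was 47.7%. A mean below 5 CPM over the 0, 24 and 48 h libraries was found for 29 of the 90. These 29 thus passed the filter on low levels only through the library in which they were high. Such a mean was also found for 25 of the other 107 and for 209 of all 13840 genes compared.

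On the later days the 90 genes were spread over the whole window that the rule allowed. At 24 h the counting interval lay above the 0 h level for 37 genes, below it for 24, and included no difference for 29. At 48 h these numbers were 44, 21 and 25, and for 11 genes the intervals at both times included no difference. Intervals were computed for the 90 genes alone, so no share over all genes compared can be set beside these numbers. They describe the group and do not set it apart from other genes. Lying within a log2 of 0.5 of the start at both times were 36 of the 90 (40.0%), beside 57.2% of the 10179 genes that stayed within 2-fold of 0 h at all 3 later times. The ratio at 48 h was above that at 24 h in 61 of the 90 genes (67.8%), beside 49.98% of those 10179, and the median difference was 0.16 in log2. Both later libraries are held to the 0 h library by the same rule, and both sets of genes were chosen on these ratios. The 90 also started lower, with a median of 10.9 CPM at 0 h, beside 21.2 CPM over all genes compared. A difference in counting error was not separated from these shares, which are a description only and were not tested.

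Between the later days, 3 of the 90 stood at least 2-fold above their 24 h level at 48 h and 1 was at least 2-fold lower. Over all genes compared the shares were 1.12% higher and 1.47% lower, and among the 10179 genes within 2-fold of 0 h throughout they were 0.206% and 0.305%. Of the 3, the most abundant was Solyc06g076850.2.1, with a log2 ratio of 1.18. The other two had 1.13 and 1.34 CPM at 24 h, against 2.52 and 2.97 CPM at 48 h, and 21.5 and 16.6 CPM at 3 h. The gene that was lower at 48 h, on chromosome 10, had 3.27 CPM at 0 h, 31.3 CPM at 3 h, 6.16 CPM at 24 h and 2.85 CPM at 48 h.

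**Figure D3:**
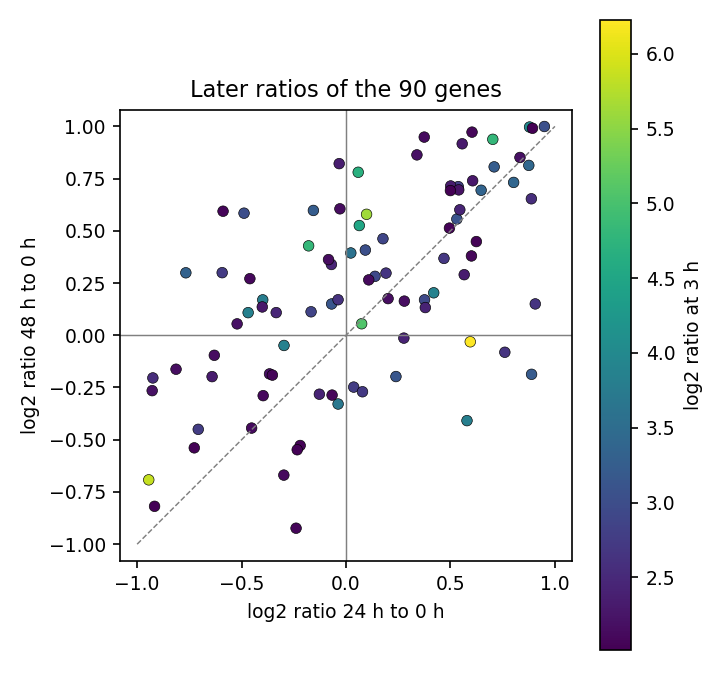
Log2 ratio to 0 h at 48 h against that at 24 h for the 90 genes, 1 point per gene, coloured by the ratio at 3 h, with the dashed line marking equal values. Above 0 at both times are 42 points and below 0 at both 21, and 61 points lie above the dashed line. Both axes share the 0 h library.

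Gene length and position were not used by the rule directly. Its minimum in CPM is not scaled by length, however, so at equal RPKM a longer gene passes it more easily. The 90 genes had a median length of 1545 bases (quartiles 947 and 2212), beside 1159 bases (738 and 1633) for the other 107 genes at least 4-fold higher at 3 h and 1487 bases (1022 and 2106) for all genes compared. Over 2000 bases long were 28.9% of the 90, 11.2% of the other 107 and 28.4% of all genes compared. Among the 27 genes at least 4-fold higher at all 3 times, the median was 1167 bases. In length the genes raised only at 3 h therefore lay near all genes compared, and the other early genes were shorter; these comparisons were chosen with the values known and were not tested. Coverage along a gene depends on its number of reads, so the 3 h value is bound to the choice of members. Reads covered at least 90% of the length in 58 of the 90 genes in the 0 h library and in 81 of them in the 3 h library. The median covered share in the 0 h library was 93.7% in the 90 genes and 97.0% over all genes compared. The lowest coverage at 3 h, 33.1%, was that of a gene model of 12053 bases on chromosome 1, which had 20.9 CPM at 0 h, 224 CPM at 3 h, 38.5 CPM at 24 h and 36.9 CPM at 48 h.

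The 90 genes came from all 12 chromosomes, as numbered in the identifiers. Chromosome 4 held 13 of them, or 11.2 per 1000 genes compared there, and chromosome 10 held 9, or 9.98 per 1000. Chromosome 11 held 1, or 1.14 per 1000, and chromosome 5 held 2, or 2.11 per 1000. For the other 107 early genes, chromosome 3 held the most (17) and chromosomes 5 and 11 held 8 and 6. With so few genes per chromosome these numbers describe the group and were not tested.

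**Figure D4:**
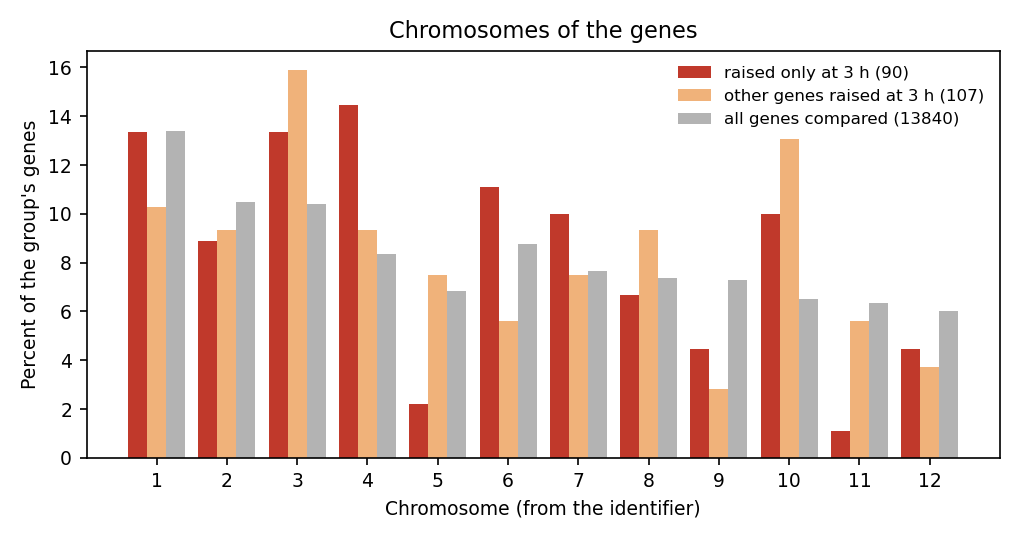
Percent of each group's genes on chromosomes 1 to 12, for the 90 genes raised only at 3 h, the other 107 genes raised at 3 h and all 13840 genes compared. Chromosome 4 holds 14.4% of the 90 and 8.36% of all genes compared, and chromosome 11 holds 1.11% and 6.36%.

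Some of the genes stand side by side. Identifiers number tomato genes along each chromosome, and 12 of the 90 had another member within 50 identifier numbers, which made 6 pairs, 4 of them at the smallest step of 10. That is 13.3% of the 90, beside 2.77% of the 13750 other genes compared that had a member as near, and 8 of the other 107 early genes (7.48%) had another of their own group as near. These shares were not tested. Solyc01g095140.2.1 is in one of these, and its neighbour is the member of highest RPKM, with 25.3 CPM at 0 h, 330 CPM at 3 h, 24.6 CPM at 24 h and 20.1 CPM at 48 h. On chromosome 3, adjacent members had log2 ratios at 3 h of 2.65 and 2.95, with 196 and 426 CPM at 3 h, against 31.0 and 55.2 CPM at 0 h. The genes of a pair on chromosome 2 had 18.1 and 16.7 CPM at 3 h, against 3.90 and 3.21 CPM at 0 h. In the pair on chromosome 4 the levels were 16.5 and 31.5 CPM at 3 h, against 1.80 and 4.46 CPM at 0 h. The strand setting of the counting is not given in the sources used here, so reads of overlapping neighbours could not be told apart.

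Around the 90 genes, most other genes were not called higher at 3 h. Within 50 identifier numbers lay 381 compared genes that were not members, and 4 of them (1.05%) were at least 4-fold higher at 3 h, beside 107 of all 13750 genes compared that were not members (0.778%). At least 2-fold higher were 21 of the 381 (5.51%), beside 4.14% of those 13750, and 3 were at least 2-fold lower. Their median log2 ratio at 3 h was 0.0046, beside 0.00031 over the 13750.

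The limits of the rule fell within a continuous range of values. The 2 members nearest the 3 h limit had log2 ratios of 2.01 and 2.02, and the 2 genes just outside it had 1.99 and 1.98 with later ratios inside the window. At 24 h the outermost members stood at 0.95 and -0.94, and the nearest early genes outside at 1.06 and -1.10. At 48 h the outermost members stood at 1.00 and -0.92, and the nearest outside at 1.05 and -1.02. The excluded gene at -1.10 had 14.3 CPM at 0 h, 267 CPM at 3 h, 6.63 CPM at 24 h and 10.1 CPM at 48 h, a course much like that of the members. The member of lowest mean level had 5.03 CPM and the next gene below the filter 4.98 CPM, and 46 genes below 5 CPM met the ratio limits.

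Beside the other 107 genes at least 4-fold higher at 3 h, the levels of the 90 were as follows. The median was 10.9 CPM at 0 h for the 90 and 5.20 CPM for the 107, and at 3 h it was 71.3 CPM and 35.4 CPM. The largest early ratio was outside the group, with a maximum log2 ratio at 3 h of 6.22 in the 90 and 7.87 in the 107. At least 100 CPM at 3 h were reached by 33 of the 90 and by 24 of the 107, beside 1690 of all 13840 genes compared. Both groups were chosen on a rise at 3 h, so their 3 h levels are a description only. The rule divides these groups by their ratios at 24 and 48 h, and its minimum on the mean of the 4 libraries lets genes that stay high pass with a lower 0 h level (a median of 2.16 CPM in the 27 genes raised at all 3 times), so the starting levels are a description only.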

How the data were processed

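RNA from the first true leaves was sequenced at 4 times, 1 library each, and the time in each title gave its group. The authors deposited, per the file headers, an RPKM value and a count of unique reads for each gene, with its length and the percent of it that reads covered. The sources used here do not give the aligner, counting tool, genome build or annotation. The deposited counts sum to the total in each header, and genes without a read are left off each list.

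Library scaling was by TMM (edgeR 4.0.16 in R 4.3.3, with factors of 0.94 at 0 h, 0.90 for 3 h, 1.06 for 24 h, 1.12 for 48 h). The pseudocount equals 5 reads at the mean library size and understates changes of low genes. The self-test used simulated data for the 3 h only rule with counting noise alone, over 13734 genes: 100 of 100 genes raised 8-fold at 3 h only were found, as were 0 of 50 raised 3-fold and 0 of 13534 unchanged. The raised genes were drawn above a higher minimum level than the filter's, and rises between 3- and 8-fold were not simulated. The 31 members below 5 CPM at 0 h and the 61 at 4- to 8-fold lie outside these settings. Some members above 5 CPM at 0 h also started below the simulated minimum and lie outside as well. Folds of single genes omit the pseudocount and have exact Clopper-Pearson intervals (95%, scipy 1.17.1), counting error only, since reads are not independent molecules.

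The members and lists were chosen with earlier results of these data known. None of the 41476 genes in the RefSeq table of assembly SLM_r2.1 carries these identifiers. Leftover text in unnamed cells of the 3 h and 24 h files names a few. Identifiers are given for members the files name, for the member with the largest ratio and for that with the highest CPM at 3 h. They are also given for the other ABA genes and for the genes under Other observations, chosen after their values were seen. Function lists other than those for ABA, kinases and cytochrome P450s (the last added after seeing the data), marker lists and promoter motifs were not used, for want of names and sequences. Alternatives were DESeq2 1.42.0 size factors, plain totals, other pseudocounts, filters, limits and references.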

Additional observations from a re-analysis of the deposited data

Results flagged for a closer look

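Solyc06g076850.2.1, the most abundant of the 90 genes at 3 h, moved in opposite directions at different times. Its log2 ratio to 0 h was 2.07 at 3 h and -0.59 at 24 h, with counting intervals that excluded no difference on both sides, and it was 0.59 at 48 h. These times were not compared by a test, for want of replicates.

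Genes with no read at 0 h entered no comparison, and some had reads at 3 h alone. Over 3 reads at 3 h, the limit that a count of 0 allows, and at most 3 reads at 24 and at 48 h were seen for 45 genes, with a median of 5 reads at 3 h. The highest, a gene of 867 bases on chromosome 3, had 63 reads at 3 h and 0 reads at 0, 24 and 48 h. The next, on chromosome 10, had 40 reads at 3 h, 3 at 24 h and 0 at 0 and 48 h. The mirror set, with no read at 3 h, over 3 reads at 0 h and at most 3 later, held 62 genes with at most 14 reads at 0 h.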

How the results depend on the processing

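No paired analysis was possible because no time has a second library, which also means that leaving out replicates was not run. DESeq2 size factors gave 88 genes raised only at 3 h (87 of them among the 90), plain library totals 73 (66), pseudocounts of 0.5 and 25 reads 92 each (88 and 85), and the mean of 0, 24 and 48 h as the reference at 3 h 86 (75). With plain totals the median log2 ratio of all genes was 0.20 at 24 h and 0.26 at 48 h, and that of the 90 was 0.24 and 0.52. Counts that moved by over 1.5 times did so with another filter, which changes the number of genes compared, or with another limit or window on the same 13840 genes, which by construction admits more or fewer of them. Without a filter there were 136 genes raised only at 3 h and 321 early genes with a 4-fold rise, with a minimum of 20 CPM 55 and 112, with a log2 limit of 1 at 3 h 331 and 659, with a limit of 3 at 3 h 29 and 70, and with a window of 0.5 in log2 at the later times 36 raised only at 3 h. The window at 24 h alone gave 111 and at 48 h alone 107, alternatives chosen after seeing the data. Taking missing genes as 0 reads left the counts at 90 and 197. The log2 ratio of Solyc01g095140.2.1 at 3 h was 5.98 with a pseudocount of 25 reads, and that of Solyc06g076850.2.1 was 2.01 with plain totals. Depth limits the low members: 14 of the 90 had under 100 reads at 0 h.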

Other observations

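Among the 47 compared genes with annotation text, 2 followed a similar course below the 4-fold limit. Another 1 was at least 2-fold lower at 3 h and stayed lower later. They were singled out after their values were seen. Over all 13840 genes compared, 331 met the rule with a log2 limit of 1 at 3 h, the 90 included. At least 2-fold higher at 3 h were 3 of the 47, beside 4.76% of all genes compared. The share at least 2-fold lower is not given for all genes compared, so these counts describe the 47 only. Solyc02g070890.2.1, named as an FLS2-like receptor kinase, a class that in Arabidopsis includes the sensor of bacterial flagellin, had 5.59 CPM at 0 h, 20.8 CPM at 3 h, 8.08 CPM at 24 h and 5.82 CPM at 48 h. Solyc11g006590.1.1, named after the tobacco cytochrome P450 CYP71AT2v2, had 51.8 CPM at 0 h, 129 CPM at 3 h, 39.6 CPM at 24 h and 46.7 CPM at 48 h. Solyc02g070580.1.1, named as sterol 22-desaturase, an enzyme of plant sterol synthesis, had 49.8 CPM at 0 h, 10.7 CPM at 3 h, 22.2 CPM at 24 h and 18.3 CPM at 48 h, lowest in the 3 h library. The log2 ratios to 0 h at 3 h were 1.87, 1.31 and -2.20 in that order. For Solyc02g070580.1.1 they were still -1.16 at 24 h and -1.44 at 48 h.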
